A study of Sus scrofa with 6 samples.

Results

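Creatine kinase, adenylate kinase, AMP deaminase, ADP/ATP carrier and myoglobin genes were described in 2 muscles of the Min pig, a Chinese breed. The list held 8 genes, CKM, CKB, CKMT2, AK1, AMPD1, AMPD3, SLC25A4 and MB, and members were found by their Ensembl gene symbol. Of the 8, 6 were found among the 25973 protein-coding genes listed, and all 6 were among the 19672 genes tested. CKB and MB were not analysed here. RNA of the longissimus thoracis (LT) muscle of the back and of the semitendinosus (ST) muscle of the hind limb was sequenced after removal of rRNA, in 6 libraries, 3 per muscle. Both muscles came from the same 3 untreated Min pigs at 30 weeks of age, and samples with the same number were taken as the same pig. Values are FPKM, which scales fragments by transcript length and by the mapped fragments of the library, so levels can be set side by side between genes of unequal length. FPKM was summed over the transcripts of a gene, and ST was compared with LT by limma on log2(FPKM + 0.1), and a gene was called where the Benjamini-Hochberg adjusted p was under 0.05 and the log2 fold change exceeded 1 in size.

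Contracting muscle can spend ATP faster than mitochondria can refill it, and these enzymes buffer the gap. Creatine kinases move phosphate between phosphocreatine and ADP. Adenylate kinase makes ATP and AMP from ADP, and AMP deaminase removes the AMP by turning it into IMP, which opens the purine nucleotide cycle. The ADP/ATP carrier exchanges both nucleotides over the inner mitochondrial membrane, and myoglobin stores oxygen in the fibre. Fast glycolytic fibres are known for strong adenylate kinase and AMP deaminase activity, whereas slow oxidative fibres are rich in mitochondria and in myoglobin.

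The pigs differed in how far the fibre types of ST and LT lay apart. The summed FPKM of 6 fast-fibre genes was 54924, 57614 and 43452 in LT of pigs 1, 2 and 3, against 10954, 37079 and 3121 in ST. The summed FPKM of 7 slow-fibre genes was 7416, 4986 and 5904 in LT, against 40537, 7001 and 41906 in ST. ST of pig 2 therefore stood apart from the other ST libraries, with a slow-fibre sum inside the LT range, and results on the members are also given without it where their call changes. With all libraries none of these genes was called by limma, although 7 of the 7 slow-fibre and 5 of the 6 fast-fibre genes had an unadjusted p under 0.05. Without ST of pig 2, all 7 slow-fibre genes passed the call as higher in ST, and all 6 fast-fibre genes as lower. Over all genes, 2.54% were then called higher and 1.38% lower in ST. ST of pig 2 was set apart by the sums of these same genes, so their calls without it are not an independent result. Calls of other genes without it also follow a choice made from these same data. With the pig as a block, 4 slow-fibre genes (MYH7, TNNT1, MYL3 and ATP2A2) and 0 fast-fibre genes were called by limma. MYH1, MYH2 and MYH4 were listed as a single joint gene, and MYH7 was matched to a joint locus named MYH6. Mitochondrially encoded transcripts made up 5.36 to 8.16% of all FPKM in LT and 12.1 to 15.4% in ST. Of 6 markers of the skeletal muscle fibre, MYLPF, TNNT3 and TNNC2 are also fast-fibre genes and lay below LT in each ST library, down to 161 FPKM for TNNT3 in ST of pig 3. The other markers were high in all libraries, with ACTA1, the skeletal actin, at 1768 to 3025 FPKM and NEB, which encodes the thin-filament protein nebulin, at 842 to 997 FPKM and DES, which encodes desmin, at 1229 to 3800 FPKM. The number of fragments behind each value was not used, so no counting interval was given. In whole muscle, fewer cells of a type and less RNA per cell cannot be told apart.

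None of the 6 genes was called between ST and LT with all 6 libraries. At an unadjusted p under 0.05 by limma 3 of 6 differed, and 2 of 6 (33.3%) had values that did not overlap between the muscles. Over all 19672 genes, 0.574% were called (0.412% with ST above and 0.163% with ST below LT), 18.8% had an unadjusted p under 0.05 and 24.7% did not overlap. The 113 calls split into 81 with ST above and 32 with ST below LT, and with quantile normalization into 32 and 29. The median log2 fold change was 0.22 over the 6 genes and 0.13 over all genes tested. That of all genes was 0.25 after rescaling to nuclear transcripts, -0.0056 after quantile normalization and -0.057 after median centring. With the pig as a block, 1 of 6 genes was called against 4.06% of all genes. Without ST of pig 2, 2 of 6 were called against 3.92% of all genes.

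The genes lay on very different levels. In LT the mean FPKM was 2068 for CKM, 586 for AK1, 307 for AMPD1, 279 for SLC25A4, 237 for CKMT2 and 3.42 for AMPD3. In LT, AMPD1 overlapped with its neighbour SLC25A4, and SLC25A4 with CKMT2, while the other neighbours in that order did not overlap. In ST the order was CKM with a mean FPKM of 2561, CKMT2 with 490, SLC25A4 with 312, AK1 with 250, AMPD1 with 83.3 and AMPD3 with 3.06. In ST only CKM and AMPD3 stood clear of their neighbours, since CKMT2 overlapped with SLC25A4, SLC25A4 with AK1, and AK1 with AMPD1.

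**Figure D1:**
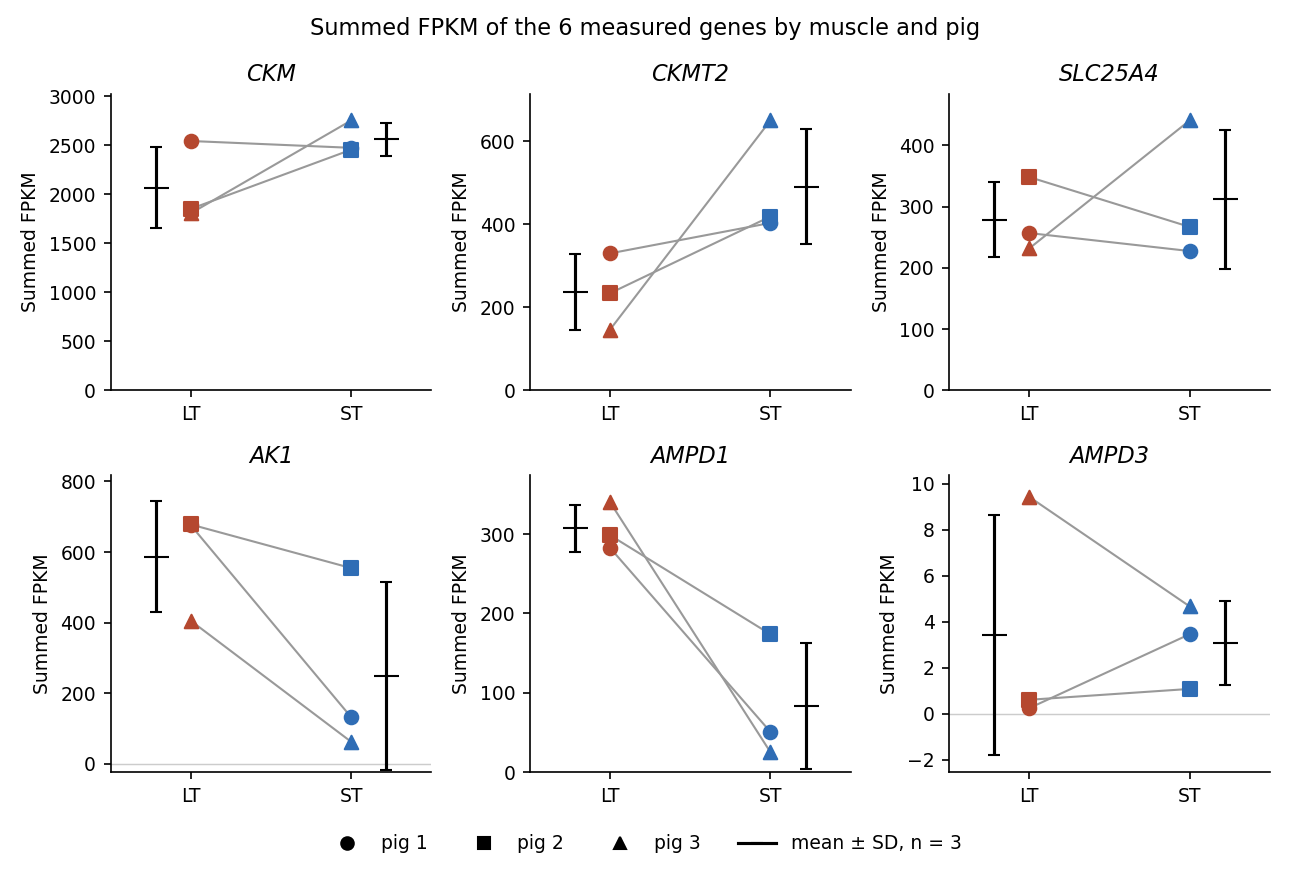
Summed FPKM (y axis, a separate linear scale per gene) of the 6 measured genes in LT and ST (x axis). Each symbol is 1 library, lines join the muscles of a pig, and bars are the mean ± SD of 3 libraries. For CKMT2 the 3 ST values lay above the LT values, for AMPD1 below them, and for AK1 the square of pig 2 stayed near its LT value. An SD bar that reaches below 0 shows only that the SD exceeds the mean.

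CKM, the cytosolic muscle creatine kinase that refills ATP at the myofibrils, was the most abundant of these genes in every library, and no difference between the muscles was called. It lies at chr6:51699165-51714813 on the minus strand of Sscrofa11.1. Its FPKM was 2544, 1852 and 1807 in LT against 2475, 2455 and 2753 in ST. LT of pig 1 lay inside the ST range, so the groups overlapped. The means were 2068 ± 413 (SD, n = 3) in LT against 2561 ± 167 (SD, n = 3) in ST. The log2 fold change was 0.32 (95% interval -0.38 to 1.03, limma adjusted p = 0.609). Within the pigs the log2 difference was -0.04, 0.41 and 0.61. Among all protein-coding genes CKM ranked between 11 and 26 in the 6 libraries, and it made up 0.509 to 0.727% of all mRNA FPKM.

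CKMT2, the sarcomeric mitochondrial creatine kinase that loads creatine with phosphate beside the ADP/ATP carrier, was higher in ST in all 3 pigs but was not called. The gene lies at chr2:89796474-89832991 on the plus strand. Its FPKM was 330, 234 and 146 in LT against 403, 418 and 650 in ST, so that each ST library stood above each LT library. The mean was 237 ± 91.8 (SD, n = 3) in LT against 490 ± 138 (SD, n = 3) in ST, a ratio of means of 2.07. The log2 fold change was 1.09 ± 0.34 (SE), with a 95% interval from 0.30 to 1.89 and a limma adjusted p of 0.151 (unadjusted p = 0.0131). The difference was small in pig 1 (log2 0.29) and large in pig 3 (log2 2.15), with pig 2 between them (log2 0.84). An exact permutation test over the 6 libraries gave p = 0.1, the smallest it can give. With ST above LT, 16.6% of all genes did not overlap.

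Several other readouts lay higher in ST beside CKMT2. The share of mitochondrially encoded transcripts did not overlap between the muscles, as given above. The 4 endothelial genes found, PECAM1, CDH5, KDR and TEK, summed to 47.1 to 71.0 FPKM in LT and 113 to 164 FPKM in ST, and none of them was at 0. Of these 4, PECAM1 and CDH5 were called higher in ST (limma adjusted p = 0.0438 and 0.0408), calls that were lost with quantile normalization (adjusted p = 0.0619 and 0.0574) and reached 0.193 at most over all alternatives. KDR was called with the pig as a block (adjusted p = 0.0324, and 0.0324 to 0.448 over all alternatives). The 5 smooth muscle and pericyte genes, of which none was called by limma with all libraries and no block and 3 had an unadjusted p under 0.05, summed to 161 to 192 FPKM in LT and 251 to 328 FPKM in ST. RGS5, a pericyte gene, was called higher in ST with the block (adjusted p = 0.0221) and without ST of pig 2 (adjusted p = 0.0201), against 0.0546 with neither and at most 0.209 over all alternatives. In ST of pig 2, CKMT2 lay above the LT range, whereas the slow-fibre sum lay within it. Of the 7 slow-fibre genes, 4 (MYH7, TNNT1, MYL3 and ATP2A2) also had each ST library above each LT library, where 16.6% of all genes did. The part of these cells and of the fibre types in the CKMT2 values was not tested.

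SLC25A4, the ADP/ATP carrier form of heart and skeletal muscle, overlapped between the muscles and was not called. It lies at chr15:46193699-46200994 on the plus strand. The FPKM of SLC25A4 was 257, 348 and 232 in LT against 227, 267 and 441 in ST, with wide overlap. The mean was 279 ± 61.3 (SD, n = 3) in LT against 312 ± 113 (SD, n = 3) in ST. The log2 fold change was 0.12 ± 0.30 (SE), with a limma adjusted p of 0.867. ST was higher only in pig 3. The sign of this small difference changed with the scaling, to -0.015 after quantile normalization and -0.063 after median centring.

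AK1, the cytosolic adenylate kinase of muscle, was lower in ST in 3 of 3 pigs, but by very unequal amounts. The gene lies at chr1:268355032-268365598 on the minus strand. Its FPKM was 676, 678 and 405 in LT against 132, 554 and 62.3 in ST. ST of pig 2 lay above LT of pig 3, so the groups overlapped. Within LT the highest value was 1.67 times the lowest, and within ST it was 8.90 times the lowest. The mean was 586 ± 157 (SD, n = 3) in LT against 250 ± 266 (SD, n = 3) in ST, 2.35-fold lower by the ratio of means. The log2 fold change was -1.78 ± 0.70 (SE), with a 95% interval from -3.40 to -0.16 and a limma adjusted p of 0.226. The log2 difference within the pigs was -2.35, -0.29 and -2.70. An exact permutation test gave p = 0.2.

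The call on AK1 depended on the library of ST that stood apart. Without ST of pig 2 the log2 fold change of AK1 was -2.65 (limma adjusted p = 0.0255). AK1 was then called lower in ST, together with 1.38% of all genes. ST of pig 2 was set apart in these same data. It had the highest AK1 of the ST libraries (554 FPKM), so this call is not an independent result. Over all alternatives the adjusted p of AK1 ran from 0.0255 to 0.482. With the pig as a block the log2 fold change was the same and the adjusted p was 0.0711.

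AMPD1, the AMP deaminase of skeletal muscle, was the gene of this group with the widest difference between the muscles. It lies at chr4:105868897-105893771 on the plus strand. Its FPKM was 283, 298 and 340 in LT against 50.9, 174 and 25.3 in ST, and each ST library stood below each LT library. The LT libraries were close to each other, with a highest value 1.20 times the lowest, whereas the ST libraries spread over 6.86 times. The mean was 307 ± 29.7 (SD, n = 3) in LT against 83.3 ± 79.4 (SD, n = 3) in ST, 3.68-fold lower by the ratio of means. The log2 fold change was -2.33 ± 0.60 (SE), with a 95% interval from -3.71 to -0.95. With all libraries and no block the limma adjusted p was 0.103 (unadjusted p = 0.0046), and the exact permutation p was 0.1.

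AMPD1 was lower in ST in 3 of 3 pigs, by log2 differences of -2.47, -0.78 and -3.74. With the pig as a block it was called (limma adjusted p = 0.0491), as were 1.23% of all genes in that direction, but not with the block and quantile normalization together (adjusted p = 0.0633). Without ST of pig 2 the log2 fold change was -3.09 (limma adjusted p = 0.00954). That library was set apart in these same data. It also had the highest AMPD1 of the ST libraries (174 FPKM), so this call is not an independent result. Over all alternatives the adjusted p of AMPD1 ran from 0.00954 to 0.295. With ST below LT, 8.08% of all genes did not overlap.

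**Figure D2:**
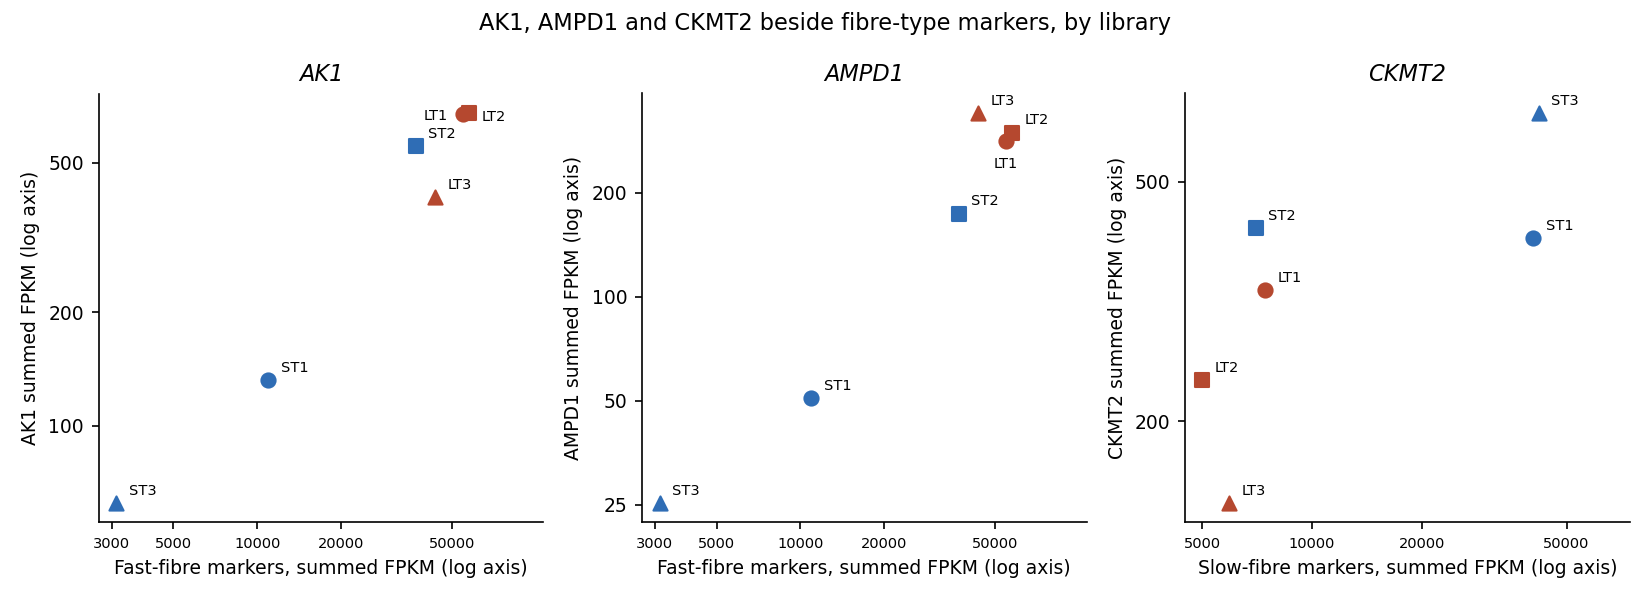
FPKM of AK1 and AMPD1 against the summed FPKM of fast-fibre genes, and FPKM of CKMT2 against that of slow-fibre genes, all on log axes, with 1 point per library (LT in red, ST in blue, numbered by pig). ST of pig 2 sits within the LT range for AK1 and for the slow-fibre sum, between the other ST libraries and LT for the fast-fibre sum and AMPD1, and above LT for CKMT2.

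AK1 and AMPD1 were lowest in the libraries with the lowest fast-fibre sums. ST of pig 3 had the lowest fast-fibre sum (3121 FPKM), the lowest AK1 (62.3 FPKM) and the lowest AMPD1 (25.3 FPKM). ST of pig 1 was next in all 3 measures, followed by ST of pig 2 for the fast-fibre sum and AMPD1. For AK1, LT of pig 3 came before ST of pig 2. Within LT, pig 3 had the lowest fast-fibre sum (43452 FPKM) and the lowest AK1 (405 FPKM). Its AMPD1, however, was the highest of all libraries (340 FPKM), so AMPD1 did not keep the order of the sums within LT. The part of fibre types in the differences of AK1 and AMPD1 was not tested.

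AMPD3, the AMP deaminase of red blood cells and other tissues, was low in both muscles, and no difference was called. It lies at chr2:49028923-49083590 on the minus strand. Its FPKM was 0.237, 0.599 and 9.42 in LT against 3.45, 1.07 and 4.66 in ST. LT of pig 3 was the highest library of all and the other LT libraries were the lowest, so the highest LT value was 39.8 times the lowest. The log2 fold change was 1.05 ± 1.14 (SE), with a limma adjusted p of 0.663. The arithmetic mean had the opposite sign, with 3.42 ± 5.20 (SD, n = 3) in LT against 3.06 ± 1.83 (SD, n = 3) in ST. Among the alternatives the log2 fold change ran from 0.07 to 2.48. Red blood cell genes did not separate the muscles, with sums of 674 to 1049 FPKM in LT and 575 to 1015 FPKM in ST.

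**Figure D3:**
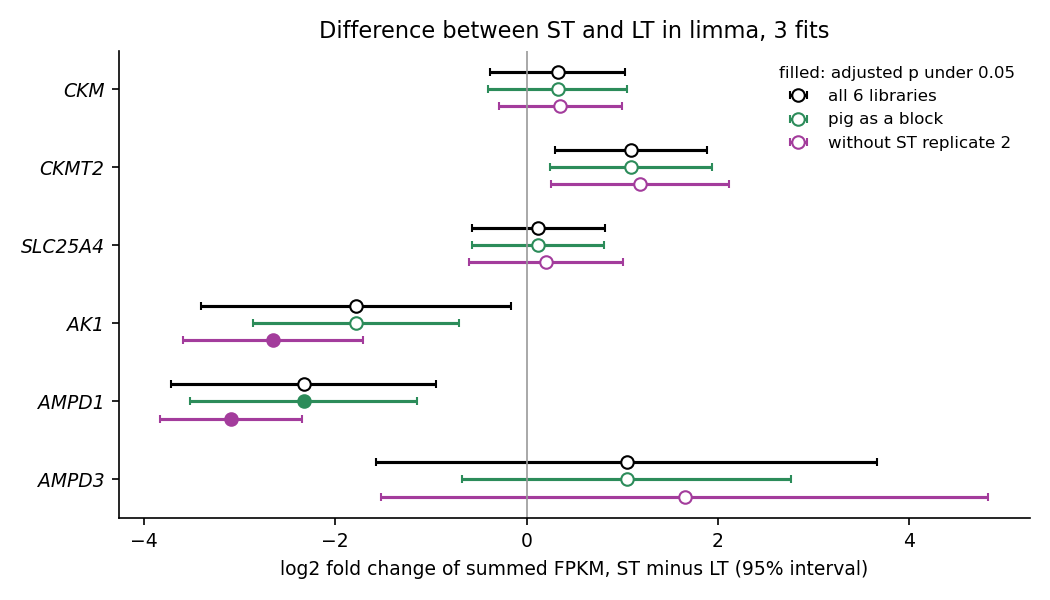
Log2 fold change of summed FPKM, ST minus LT (x axis), with its 95% interval for each of the 6 genes (y axis), from the comparison of all libraries, with the pig as a block, and without ST of pig 2. Filled circles have an adjusted p under 0.05. Filled circles occur for AMPD1 with the block, and for AMPD1 and AK1 without ST of pig 2.

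Ratios of the genes within a library do not depend on the scaling between libraries. They ask how the parts of the buffering system stood to each other. CKMT2 stood at 13.0, 12.6 and 8.10% of CKM in LT and at 16.3, 17.0 and 23.6% in ST, without overlap. The log2 ratio was higher in ST by 0.77. CKMT2 also stood higher against SLC25A4, its partner in mitochondrial phosphate transfer, at 128, 67.2 and 63.2% in LT against 177, 157 and 147% in ST. This log2 ratio was higher by 0.97. AMPD1 stood at 11.1, 16.1 and 18.8% of CKM in LT and at 2.05, 7.08 and 0.920% in ST, a log2 difference of -2.66 without overlap.

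The other ratios overlapped between the muscles. AK1 stood at 22.4 to 36.6% of CKM in LT and at 2.26 to 22.6% in ST, with a log2 difference of -2.11. AMPD3 reached 0.0838 to 2.77% of AMPD1 in LT and 0.616 to 18.4% in ST, and was higher in ST in 3 of 3 pigs. SLC25A4 against CKM differed by -0.20 on the log2 scale, with an exact permutation p of 0.6. Of the 6 ratios tested, the 3 without overlap had an exact permutation p of 0.1, the smallest possible with 3 against 3 libraries, and 0.2 after Benjamini-Hochberg adjustment over the 6. The ratios of AK1 to CKM and of AMPD3 to AMPD1 had an exact p of 0.2, adjusted to 0.24.

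The transcripts of each gene were then compared. The files list 20 transcripts of the 6 genes, of which 15 passed the filter of FPKM above 0.1 in any library. None of the 15 was called, against 0.146% of all 52102 transcripts tested, while 7 had an unadjusted p under 0.05 by limma and 5 did not overlap between the muscles. Of all transcripts tested, 9.69% had an unadjusted p under 0.05 and 16.3% did not overlap. None of the 15 was called with the pig as a block (0.00384% of all transcripts) or without ST of pig 2 (0.178%). FPKM of transcripts that share exons depends on how the assembler split the reads between them.

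AK1 kept its 2 transcripts in nearly the same proportion while its level ranged widely. ENSSSCT00000054545, of 6 exons and 1151 bases, made up 60.8 to 68.4% of the gene in the 6 libraries. ENSSSCT00000006187, of 7 exons and 1851 bases, made up the rest. The share of the first was 65.7% ± 3.48 (SD, n = 3) in LT against 65.5% ± 4.08 (SD, n = 3) in ST. Both transcripts had similar log2 fold changes, of -1.78 and -1.77.

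AMPD1 was not alike in its transcripts. ENSSSCT00000052984, of 16 exons and 3934 bases, had FPKM of 281, 297 and 339 in LT against 36.9, 173 and 17.0 in ST, with a log2 fold change of -2.67 (limma adjusted p = 0.387). ENSSSCT00000053787, of 17 exons and 2488 bases, had FPKM of 1.50, 1.32 and 1.27 in LT against 14.0, 0.911 and 8.29 in ST. It made up 0.375 to 0.531% of AMPD1 in LT and in ST 27.5% in pig 1, 0.524% in pig 2 and 32.7% in pig 3. In ST of pig 2 the share was thus within the LT range, as its slow-fibre sum was. Of the 7 slow-fibre genes, however, 4 lay above the LT range in that library. With all libraries the log2 fold change of ENSSSCT00000053787 was 1.75 (limma adjusted p = 0.601). Without ST of pig 2 it was 2.89 (limma adjusted p = 0.0669), and it was not called in either fit.

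SLC25A4 differed between libraries in its transcripts, while no difference of its summed level between the muscles was called. ENSSSCT00000024370, a short form of 5 exons and 1018 bases, had FPKM of 140, 11.3 and 115 in LT against 3.10, 24.1 and 7.25 in ST. Its share of the gene was 54.5 and 49.8% in LT of pigs 1 and 3, but 3.25% in LT of pig 2 and 1.36 to 9.04% in ST. LT of pig 2 thus grouped with the ST libraries, and the log2 fold change of -2.78 had a limma adjusted p of 0.510. ENSSSCT00000017193, of 5 exons and 4227 bases, made up 8.40, 0.440 and 10.5% in LT against 21.4, 20.0 and 22.2% in ST. These shares did not overlap (exact permutation p = 0.1, the smallest it can give). The log2 fold change of its FPKM was 2.74 (limma adjusted p = 0.487), and it was not called. ENSSSCT00000059379, of 4 exons and 4359 bases, held the rest, from 37.1 to 96.3%. It starts and ends at the same bases as ENSSSCT00000017193.

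CKM and CKMT2 were each led by the same transcript in all libraries. For CKM, ENSSSCT00000087584, of 3231 bases, made up 57.5 to 71.7%. The shorter ENSSSCT00000075869, of 1507 bases, made up 33.3, 34.9 and 16.9% in LT against 39.5, 18.2 and 38.8% in ST, low in LT of pig 3 and ST of pig 2. The longest, ENSSSCT00000041497 of 6060 bases, made up 2.25 to 12.3%. For CKMT2, ENSSSCT00000084518 of 1897 bases made up 59.6 to 79.2% and ENSSSCT00000040032 of 7127 bases 20.5 to 39.4%. Both were higher in ST without overlap, with log2 fold changes of 1.21 and 0.81 (limma adjusted p = 0.460 and 0.307). A minor form, ENSSSCT00000040518, did not overlap either and reached at most 4.31 FPKM.

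AMPD3 was carried by ENSSSCT00000044142, of 15 exons and 6591 bases, which made up 80.8 to 99.9% of the gene. ENSSSCT00000026707 reached 1.17 FPKM in LT of pig 3 and 0.705 FPKM in ST of pig 3, and was listed at 0 in LT and ST of pig 2. Neither was called.

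**Figure D4:**
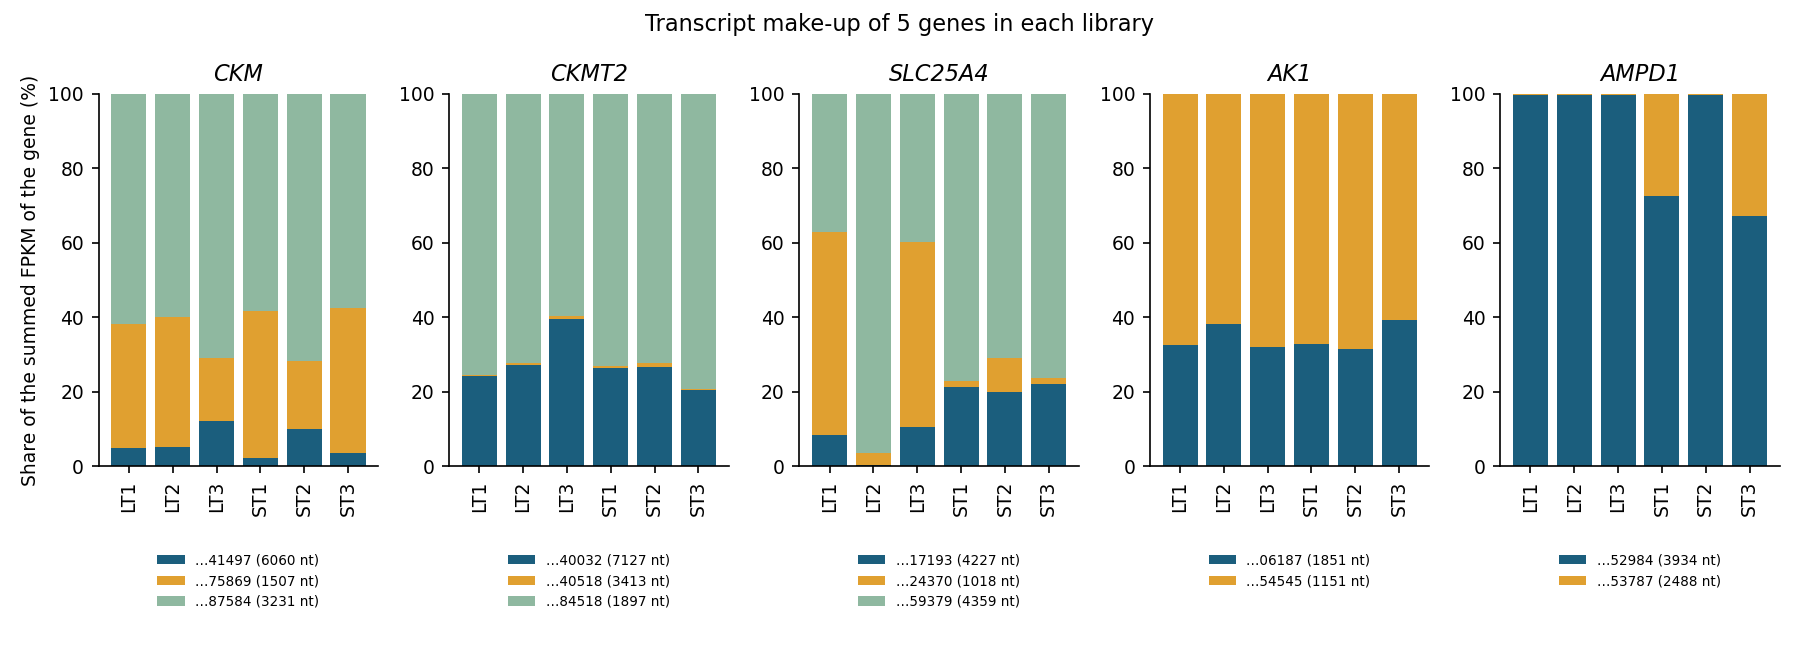
Share of each transcript in the summed FPKM of its gene (y axis, percent) for the 5 genes other than AMPD3, in the 6 libraries (x axis, LT and ST by pig), with colours for the transcripts named under each panel. Shares of AK1 were nearly constant (60.8 to 68.4% for the larger), whereas the 17-exon form of AMPD1 reached 27.5 and 32.7% in ST of pigs 1 and 3, and the short form of SLC25A4 54.5 and 49.8% in LT of pigs 1 and 3.

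Assembled transcripts on the opposite strand covered at least 50% of the range of 5 of the 6 genes, all but AMPD3. The ratio of their FPKM to that of the gene was 17.2 to 30.6% of CKM, 8.76 to 15.1% of CKMT2, 5.50 to 6.85% of AK1, 2.36 to 3.58% of AMPD1 and 1.99 to 3.78% of SLC25A4. Of 370 Ensembl genes with mean FPKM above 100, 188 (50.8%) had such a transcript, with a median ratio of 4.20% and quartiles of 2.36 and 6.87%. CKM and CKMT2 therefore lay above the third quartile in all libraries.

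The opposite-strand transcript of AK1 was LNC_000551, which the files class as an intronic lncRNA although it has 7 exons and 1828 bases. It starts 39 bases after the start and ends 13 bases after the end of AK1. Its FPKM was 46.3, 45.6 and 27.7 in LT against 8.37, 30.5 and 3.85 in ST, in the same order of pigs within ST as AK1. At CKM, 2 assembled mRNAs of 8 exons each ran on the opposite strand. The longer, of 2135 bases, had FPKM of 559, 387 and 335 in LT against 499, 236 and 472 in ST. The shorter, of 1643 bases, had FPKM of 218 in LT of pig 3 and 419 in ST of pig 2 and at most 0.0767 in the other libraries. These were also the libraries in which the short CKM transcript had its lowest shares. The library kit keeps strand, but whether strand was used in mapping and assembly is not given in the sources used here, so reads of a gene and of its opposite-strand partner cannot be told apart.

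**Figure D5:**
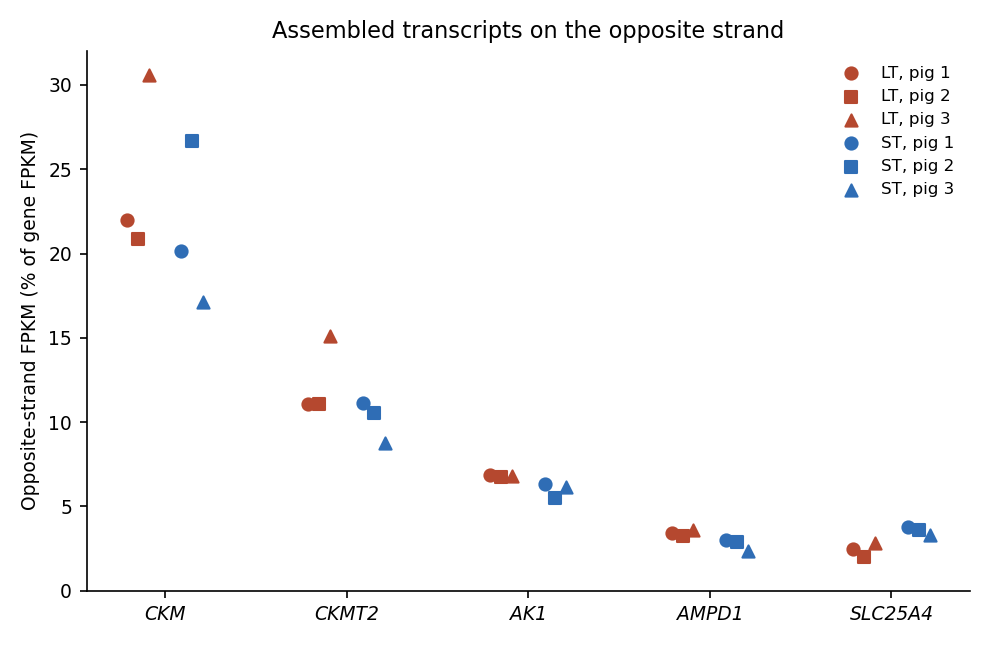
Summed FPKM of assembled transcripts on the opposite strand as a percent of the summed FPKM of the gene (y axis), for the 5 genes with such transcripts (x axis). Each symbol is 1 library (LT red, ST blue, symbol by pig). The ratio was highest for CKM (17.2 to 30.6%) and stayed between 5.50 and 6.85% for AK1 over all 6 libraries.

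Other genes of the same pathways were compared by lists. The call was passed by 1 gene of the 5 lists, beside 0.412% of all genes called higher in ST. In creatine synthesis and transport, 0 of 3 genes tested were called by limma, 0 had an unadjusted p under 0.05, and the list had a median log2 fold change of -0.39. GAMT, which makes creatine, had FPKM of 94.0, 89.8 and 56.5 in LT against 67.5, 82.2 and 37.8 in ST. SLC6A8, the creatine transporter, had FPKM of 7.34, 11.4 and 14.1 in LT against 4.58, 12.3 and 7.50 in ST, and both overlapped. GATM, the enzyme before GAMT, stayed at 0.864 to 1.32 FPKM.

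Among the other adenylate kinases, 0 of 6 were called by limma, with 0 at an unadjusted p under 0.05 and a median log2 fold change of -0.18. Each of the 6 lay below AK1 in every library. AK3, the form of the mitochondrial matrix, had FPKM of 9.04 to 12.7 in LT and 11.7 to 14.7 in ST. AK6 had 7.40 to 10.2 FPKM in LT and 3.69 to 7.69 FPKM in ST, and AK4, another matrix form, 1.21 to 3.50 FPKM over the 6 libraries. AK5 stayed at 0.145 to 0.745 FPKM.

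In AMP deamination, the purine nucleotide cycle and AMP breakdown and salvage, 0 of 12 genes were called by limma, with 1 (PNP) at an unadjusted p under 0.05 and a median log2 fold change of 0.25. NT5C2, a cytosolic nucleotidase that splits IMP, had FPKM of 28.2, 18.8 and 36.5 in LT against 87.2, 26.1 and 54.7 in ST. NT5C1A, a nucleotidase of AMP, had FPKM of 11.2, 1.89 and 7.35 in LT against 5.79, 14.7 and 20.3 in ST. ADSL, which closes the cycle back to AMP, ranged from 14.3 to 30.6 FPKM over the 6 libraries, and NT5C3A from 12.4 to 25.1 FPKM. Only ADA, adenosine deaminase, was called with the pig as a block (limma adjusted p = 0.0353, against 0.299 without it and 0.0353 to 0.606 over all alternatives), with FPKM of 1.56, 0.978 and 3.20 in LT against 2.88, 2.44 and 6.27 in ST.

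Of the carriers and pores of the mitochondrial membranes, 0 of 8 were called by limma with all libraries and 5 of 8 had an unadjusted p under 0.05. Their median log2 fold change was 0.64, and 6 of 8 had each ST library above each LT library, where 16.6% of all genes did. SLC25A25, a calcium-regulated carrier, had a log2 fold change of -0.12 and overlapped. VDAC2, a pore of the outer membrane, had FPKM of 184, 213 and 201 in LT against 254, 284 and 307 in ST. VDAC3 had FPKM of 116, 99.6 and 113 in LT against 231, 142 and 189 in ST. VDAC1 had FPKM of 67.9 to 85.4 in LT and 116 to 123 in ST. SLC25A3, the phosphate carrier, had FPKM of 62.8 to 81.6 in LT and 85.7 to 140 in ST. SLC25A5, the ADP/ATP carrier of many other tissues, was far below SLC25A4, at 3.18, 4.03 and 4.78 FPKM in LT and 8.12, 6.77 and 11.1 FPKM in ST. Its log2 fold change was 1.08 (limma adjusted p = 0.0767), and it was called with the block (adjusted p = 0.0319) and without ST of pig 2 (adjusted p = 0.0453), with 0.0319 to 0.254 over all alternatives. Of all genes, 2.84% were called higher with the block and 2.54% without ST of pig 2.

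In the list of globins and haem supply, 1 of 8 genes was called. ALAS1, the enzyme of the first step of haem synthesis in most tissues, had FPKM of 6.84, 7.56 and 7.54 in LT against 14.4, 18.2 and 15.5 in ST. It rose by 1.11 on the log2 scale (limma adjusted p = 0.0408, 0.0232 to 0.192 over all alternatives), and quantile normalization ended the call at 0.0673. HBB, the beta globin of red blood cells, had FPKM of 667, 811 and 1033 in LT against 692, 568 and 1005 in ST and did not follow the muscle. Of the red blood cell genes, ALAS2 had FPKM of 5.32 to 13.4 and SLC4A1 of at most 0.160. The endothelial sums that were higher in ST are given above, and their part in ALAS1 was not tested.

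Of the remaining cell types, all but satellite cells overlapped between the muscles in their summed FPKM. Adipocyte genes summed to 65.2 to 180 FPKM in LT and 47.3 to 148 FPKM in ST, led by FABP4 and ADIPOQ, and macrophage genes to 11.1 to 14.5 FPKM in LT and 9.84 to 25.7 FPKM in ST. Fibroblast genes summed to 607 to 1295 FPKM in LT and 624 to 1172 FPKM in ST, led by COL3A1 and DCN, and Schwann cell genes to 15.4 to 44.3 FPKM in LT and 22.6 to 35.8 FPKM in ST. The satellite cell genes PAX7 and MYF5 together had 1.46 to 1.98 FPKM in LT and 2.03 to 3.36 FPKM in ST, but each of them overlapped on its own. None of the 5 adipocyte, 5 fibroblast, 4 macrophage, 3 Schwann cell or 2 satellite cell genes was called by limma, and 1 of them, LEP, had an unadjusted p under 0.05. LEP, an adipocyte gene, lay near the filter of 0.1 FPKM, at 0.185 to 0.253 FPKM in LT and 0.0389 to 0.0809 FPKM in ST. The other adipocyte genes each overlapped between the muscles.

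As a description, the genes whose log2 levels ran most like each member over the 6 libraries were sought among 2921 to 2922 other genes with mean FPKM above 10. All values come from the same libraries and share their depth. CKM was closest to DNASE1L1, KLC2 and CUEDC1 (Pearson r of 0.952, 0.939 and 0.932, n = 6). For CKMT2 they were ATP5MC3, a subunit of the mitochondrial ATP synthase, VPS13C and MRPL2, a mitochondrial ribosomal protein (r of 0.992, 0.988 and 0.983). The nearest to AK1 were TSPAN31, DYNLL1 and MYBPC2, the fast form of myosin-binding protein C (r of 0.993, 0.993 and 0.992). MYBPC2 had FPKM of 862, 921 and 578 in LT against 119, 629 and 28.0 in ST. For AMPD1 the list gave MAF, TMOD4, a tropomodulin that caps thin filaments of skeletal muscle, and ATL2 (r of 0.994, 0.994 and 0.992). TMOD4 had FPKM of 591, 675 and 703 in LT against 249, 455 and 198 in ST. AMPD3 ran closest to PHF23, PTPN11 and FAM76A (r of 0.982, 0.972 and 0.967). For SLC25A4 they were C1QB, TYROBP and C1QC, which are known as genes of macrophages (r of 0.966, 0.961 and 0.954). LT and ST of the same pig were not independent, and high values of r are easily reached with 6 points and so many candidates.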

How the data were processed

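The 6 libraries came from LT and ST of 3 Min pigs. The deposited values are FPKM per transcript, which the authors obtained with StringTie from reads cleaned with SOAPnuke and placed on Sscrofa11.1 by HISAT2. Read counts per transcript were not used, so the depth behind single values is not given.

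The files list 72511 transcripts. FPKM was summed over the mRNA transcripts of each gene, and 19672 genes with FPKM above 0.1 in any library were tested. For ST against LT, log2(FPKM + 0.1) was fitted in limma 3.58.1 (R 4.3.3), with a trend in the variance and Benjamini-Hochberg adjustment. The main fit had no block, since the study names none for its test. The study did choose muscles of the same pig to avoid differences between individuals. The main fit does not use this pairing, and the fit with the pig as a block does. Transcripts were tested in the same way, with lncRNAs and mRNAs in 1 fit. The comparison was tested on simulated data. Exact permutation tests of single values were 2-sided, did not use the pairing by pig, and can give no p below 0.1 here. Python 3.11.15, numpy 2.4.6, pandas 2.3.3 and matplotlib 3.10.9 served for the rest. Without a block, limma p-values rest on the spread between 3 pigs per muscle, and with the block on the spread of the differences within 3 pigs. In both, limma draws the variance of a gene toward a trend over all genes. Exact permutation p-values come from relabelling the 6 libraries.

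Per the study's methods LT and ST came from 3 individuals, and same-numbered samples were paired by the number in the labels. The residual correlation of same-numbered samples was 0.290, 0.261 and 0.292, and that of others -0.109 to -0.185.

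Symbols were matched to 14692 of 21902 Ensembl gene IDs. Where a list gene had no match by symbol, VDAC2, AK4, CYGB, CKMT1A, ADGRE1 and the joint MYH1, MYH2 and MYH4 gene were matched by position, MYLPF by its current symbol and MYH7 by a joint locus, all after the data were seen. A further 10 list genes without a match (CKMT1B, AK9, ADSS1, SLC25A6, HBA1, HBA2, HMOX1, TTN, VWF and S100B) were not analysed here. CKB and MB, and their ratios to CKM, were not analysed here, and 1 further gene of the lists is not reported here. Members and lists were chosen with earlier results of these data known. Genes named were the members and their transcripts, in each pathway list the genes called and otherwise up to 4 of highest mean FPKM and up to 2 of largest change, and the up to 3 genes most like each member. Beyond this rule, ADA, SLC25A5, SLC25A25 and some marker genes were named after their values were seen.

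Alternatives were other pseudocounts (0.01 and 1), other filters, the pig as a block, rescaling to nuclear transcripts, quantile normalization, median centring, no variance trend, only the highest transcript or only Ensembl transcripts of a gene, and leaving out each library. The block together with quantile normalization was added after the data were seen.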

Additional observations from a re-analysis of the deposited data

How the results depend on the processing

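Of 108 values of the 6 genes under alternatives, 101 kept their direction and side of the threshold, as did 221 of 224 of their transcripts. Ratios have no threshold, and 52 of 54 kept their direction. The block, other filters, no variance trend and, for the 6 genes, Ensembl transcripts only leave the log2 difference as it was. They could change only a call. The block also leaves a ratio as it was. AK1 passed the threshold without ST replicate 2 (-2.65), with -2.65 to -1.08 over single libraries left out, and AMPD1 passed it with the replicate block by pig (-2.33) and without ST replicate 2, with -3.09 to -1.70 over libraries left out. The pairing by pig changed no other call of a member. SLC25A4 turned to -0.015 with quantile normalization, with or without the block, to -0.063 with median centring and to -0.16 without ST replicate 3, with -0.16 to 0.32 over libraries left out. Members called were 1 with the block, 0 with block and quantile normalization together (AMPD1 adjusted p = 0.0633) and 0 to 2 over libraries left out. All genes called, 113 with all libraries, were 30 without a filter, 799 with the block, 330 with rescaling to nuclear transcripts, 61 with quantile normalization, 48 with median centring, 29 without a variance trend, 424 with block and quantile normalization together, and 0 to 771 over libraries left out. The count was 0 without LT of pig 1, 1 without LT of pig 2, 8 without LT of pig 3, 11 without ST of pig 1, 771 without ST of pig 2 and 17 without ST of pig 3. Pathway genes called were 3 with the block, 0 with quantile normalization and 0 to 2 over libraries left out. Among transcripts, ENSSSCT00000041497 of CKM turned to 0.02 without LT replicate 3 and 0.19 without ST replicate 1 (-0.89 to 0.19 over libraries left out), and ENSSSCT00000044142 of AMPD3 to -0.00021 without LT replicate 1 (-0.00021 to 2.34). The log2 ratio of SLC25A4 to CKM turned to 0.36 with only the highest transcript and to 0.039 without LT replicate 2 (-0.43 to 0.039 over libraries left out). The causes were not tested. With 3 pigs, and without counts per transcript, the low values of AMPD3 and of minor transcripts are the least certain.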
